A study of Mus musculus with 6 samples.

Results

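The genes described here are 42 genes of the cell cycle and of DNA replication, chosen by name for their known function. All 42 names were found among the 27361 gene names of the arrays, and all 42 were among the 19044 names tested. They fall into 5 role groups: 8 G1 cyclins and kinases, 10 genes of origin licensing and the replication fork, 4 genes of nucleotide synthesis, 16 mitotic genes and 4 cell cycle transcription factors. The 14 licensing, fork and nucleotide genes are called S phase genes and are kept apart from the mitotic genes.

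The study compared macrophages with and without the transcription factor FoxO1 in 3 polarization states. Bone marrow cells of C57BL/6 mice were grown for 7 days in medium containing 10% L929 supernatant, which supplies the macrophage growth factor CSF1, and then left unstimulated (M0), given 100 ng/ml lipopolysaccharide (LPS) and 20 ng/ml interferon-gamma (M1), or given 10 ng/ml of each of the interleukins IL-4 and IL-13 (M2), for 24 hours. The control genotype (WT) was FoxO1 Fl/Fl, in which the gene is flanked by loxP sites and intact. The knockout (KO) was LysMcre FoxO1 Fl/Fl, which adds a Cre recombinase driven by the lysozyme M gene of myeloid cells. Loss of FoxO1 and presence of Cre cannot be told apart, since Cre was present in KO only. RNA of each of the 6 combinations was hybridised to 1 Agilent 1-colour array, and the labels do not say whether the samples came from separate animals.

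Bone marrow-derived macrophages divide in response to CSF1, and in macrophages LPS and interferon-gamma are known to arrest the cycle. In G1, D-type and E-type cyclins bind cyclin-dependent kinases and inactivate the retinoblastoma proteins, which frees E2F factors to activate the genes of origin licensing, of the replication fork and of nucleotide supply. Mitotic genes are switched on later, largely through the MuvB complex with the factors encoded by Mybl2 and Foxm1, and are repressed in resting cells by the same core in the DREAM complex.

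The factors named above bind short DNA words, and the 5 promoters below show where these words lie in S phase and in mitotic genes. RefSeq promoters of the GRCm38.p6 assembly were matched by symbol for 33 of the 42 genes and searched on both strands, over the 250 bases before the start, for 3 short words. The E2F word stands for TTTCCCGC, TTTCGCGC, TTTGCCGC or TTTGGCGC, the binding sequence of E2F. The CHR word is TTTGAA, known as the cell cycle genes homology region, and the CCAAT box is CCAAT, bound by the factor NF-Y. Each is written in the sense of its gene, with the words of either strand in capitals.
Mcm5 (chr8:75109259-75109508, plus strand): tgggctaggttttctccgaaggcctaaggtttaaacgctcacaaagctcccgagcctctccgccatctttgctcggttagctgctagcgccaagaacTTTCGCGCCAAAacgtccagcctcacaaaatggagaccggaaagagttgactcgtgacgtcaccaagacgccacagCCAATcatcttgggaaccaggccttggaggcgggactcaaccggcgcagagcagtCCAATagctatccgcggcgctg
Mcm6 (chr1:128359706-128359955, minus strand): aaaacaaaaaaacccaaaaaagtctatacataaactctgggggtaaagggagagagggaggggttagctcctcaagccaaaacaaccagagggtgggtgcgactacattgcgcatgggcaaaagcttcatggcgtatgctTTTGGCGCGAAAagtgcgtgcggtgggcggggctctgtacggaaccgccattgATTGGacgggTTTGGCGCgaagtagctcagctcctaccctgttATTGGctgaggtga
Cdc20 (chr4:118437344-118437593, minus strand): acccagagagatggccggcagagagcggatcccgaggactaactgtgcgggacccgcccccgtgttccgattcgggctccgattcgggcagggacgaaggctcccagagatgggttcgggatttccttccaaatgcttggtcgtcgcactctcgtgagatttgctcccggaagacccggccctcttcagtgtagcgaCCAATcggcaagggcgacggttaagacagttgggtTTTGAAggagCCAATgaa
Top2a (chr11:99024190-99024439, minus strand): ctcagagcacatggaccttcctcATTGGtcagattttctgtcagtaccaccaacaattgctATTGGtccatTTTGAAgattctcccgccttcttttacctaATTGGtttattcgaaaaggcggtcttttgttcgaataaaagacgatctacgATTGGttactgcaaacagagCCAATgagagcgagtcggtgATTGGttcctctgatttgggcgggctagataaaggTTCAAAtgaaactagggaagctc
Kif11 (chr19:37376132-37376381, plus strand): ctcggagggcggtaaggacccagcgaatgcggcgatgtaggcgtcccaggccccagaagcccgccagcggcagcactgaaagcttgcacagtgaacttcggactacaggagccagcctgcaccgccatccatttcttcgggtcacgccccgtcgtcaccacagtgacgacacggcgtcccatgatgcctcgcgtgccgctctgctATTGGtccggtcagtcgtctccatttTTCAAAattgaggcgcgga

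Mcm5 and Mcm6 encode subunits of the replicative helicase, Cdc20 an activator of anaphase, Top2a topoisomerase II alpha and Kif11 the spindle motor Eg5. Mcm5 and Mcm6 each hold E2F words that overlap head to head, so that 1 run of capitals covers a word on each strand. They begin 153 and 149 bases before the start of Mcm5, and 110 and 106 bases before that of Mcm6, which holds another 47 bases before its start. Cdc20, Kif11 and Top2a hold a CHR word 18, 19 and 23 bases before the start, and Top2a holds another 179 bases before it. The E2F word occurred in 4 of the 9 licensing and fork promoters with a sequence (Cdc6, Mcm5, Mcm6 and Mcm7). It occurred in 0 of 4 nucleotide synthesis promoters, in 0 of 12 mitotic promoters and in 2.16% of the promoters of 27025 genes. The CHR word occurred in 5 of 12 mitotic promoters (Ccnb2, Cdc20, Top2a, Mki67 and Kif11) and in 18.3% of all. It also occurred in 2 of 9 licensing and fork promoters (Cdc45 and Mcm2) and in 0 of 4 nucleotide synthesis promoters. The CCAAT box occurred in 11 of 12 mitotic promoters, 9 of 13 S phase promoters and 37.5% of all. All 5 mitotic promoters with a CHR word also held a CCAAT box, as did those of Cdc45 and Mcm2. Both words occurred in 7.34% of all genes' promoters. The windows of 10 genes (Ccne1, Cdk4, Cdk6, Cdt1, Tk1, Tyms, Birc5, E2f1, Mybl2 and Mxd3) held none of the 3 words, which says only that these letters are not in this window. The window of E2f1 reads in large part as protein-coding sequence, so it does not describe the promoter of E2f1.

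Levels are log2 signals relative to the 75th percentile of the array, which lay between 532 and 628 signal units, and a difference of 1.00 is 2-fold. Foxo1 was lower in KO in each state, with KO minus WT between -2.92 and -2.66 on 1 probe and between -2.90 and -2.80 on the other. Of the 42 genes, 41 were well above background on all 6 arrays, and Kif11 was so on the 4 arrays other than M1. Where a gene had several probes, the brightest was used. Macrophage markers were high on every array (10 of 10 well above background, summed level from 618 to 954 times the 75th percentile). Summed levels of B cell, T and NK cell and erythroid markers were at most 1.85. Liver transcripts such as albumin stood out on WT M0 (10 of 10 well above background, summed level 32.4) and less on KO M1 (9 of 10, summed level 1.37). On the other arrays the summed level was 0.146 to 0.267, with 4 to 7 of 10 well above background. The arrays lay on 2 slides, the M0 and M1 arrays of WT on slide 1 and the other 4 on slide 2, so the M1 and M0 arrays of each genotype share a slide, as do the M2 arrays of WT and KO.

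The M1 arrays stood apart from the M0 and M2 arrays for most of these genes. The heat map of all levels shows the M1 arrays of both genotypes lowest for most S phase and mitotic genes, a block of G1 cyclins and Tpx2 going the other way, and the WT M2 array brightest. The median level of the 16 mitotic genes was -0.18, -2.49 and 0.07 on the M0, M1 and M2 arrays of WT and -0.54, -1.84 and -0.81 on those of KO. For the 14 S phase genes it was 0.82, 0.11 and 1.41 in WT and 0.37, 0.19 and 0.65 in KO.

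**Figure D1:**
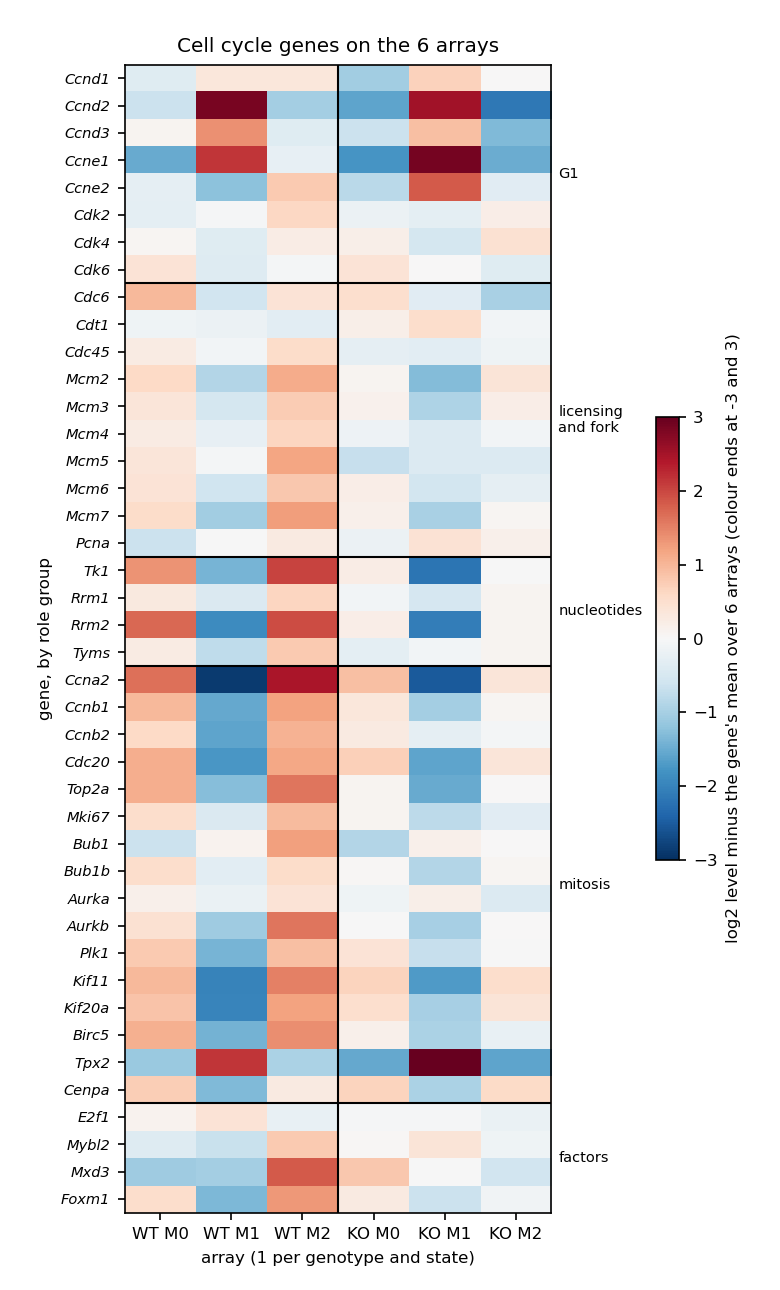
Log2 level of each of the 42 genes (vertical axis, by role group) on each of the 6 arrays (horizontal axis), shown as colour after subtracting the gene's mean over the 6 arrays. Ccnd2, Ccne1 and Tpx2 are red on both M1 arrays, while Ccna2, Cdc20 and Rrm2 are blue there, and the WT M2 array is the brightest of the 6 for 29 of 42 genes.

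In M1 macrophages, 4 of 14 S phase genes and 6 of 16 mitotic genes fell relative to M0 cells, while 3 G1 cyclins and the mitotic gene Tpx2 rose. At an adjusted p under 0.05 in limma, in an additive model of state and genotype over the 6 arrays, 10 genes fell and 4 rose. The p-values measure only the spread between these 6 samples. Ccna2, cyclin A2 of S phase and mitosis, fell most (-3.98), and Ccne1, cyclin E1, rose most (4.15). Such calls are common in this comparison, in which 25.6% of the 19044 genes passed, 11.6% higher and 14.0% lower. Both M1 arrays lay below both M0 arrays for 25 of 42 genes against 32.6% of all tested genes, and above them for 7 against 30.5%. The median over the 42 genes was -0.73, beside 0.03 over all tested genes.

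Among the G1 cyclins, the D-type and E-type cyclins had M1 differences above 0, and 3 of the 5 passed. Ccnd2, cyclin D2, read -0.37, 3.11 and -0.75 in WT and -1.31, 2.80 and -1.88 in KO, in the order M0, M1 and M2 as in all such sentences below. Both M1 arrays stood far above the other 4, and the fitted M1 minus M0 difference was 3.79 (SE 0.26, adjusted p of 0.00793 in limma). Its 3 probes, of which the one used lies at chr6:127079694-127079753 on the minus strand of mm9, gave 3.63, 3.76 and 3.79. Ccne1 read -0.10, 3.56 and 1.17 in WT and -0.36, 4.27 and -0.08 in KO. The M1 arrays were again the highest, with WT M2 above the remaining 3, and the difference was 4.15 (SE 0.52, adjusted p of 0.0161 in limma). A dimmer probe at the same position gave 3.72. Ccnd3, cyclin D3, read 1.23, 2.53 and 0.79 in WT and 0.50, 2.07 and -0.17 in KO, the M1 arrays above the M0 arrays, with a difference of 1.43 (SE 0.20, adjusted p of 0.0187 in limma).

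Ccnd1, cyclin D1, the D-type cyclin most closely tied to growth factor signals, read 1.40, 2.10 and 2.10 in WT and 0.72, 2.45 and 1.76 in KO. It was lowest on the M0 arrays, but WT M1 and WT M2 were level, and M1 minus M0 did not pass at 1.22 (SE 0.30, adjusted p of 0.0589 in limma). Its signal comes from 10 spots per array, with an SD between spots of 0.030 to 0.059, which is technical error within an array only. Ccne2, cyclin E2, read -4.69, -5.67 and -3.63 in WT and -5.23, -2.58 and -4.77 in KO. Its M1 arrays were the lowest and the highest of the 6, so that M1 and M0 overlapped. M1 minus M0 was -0.98 in WT and 2.64 in KO, and a dimmer probe gave -0.65 and 2.55. None of the kinases passed. Cdk4 and Cdk6, the partners of D-type cyclins, differed by -0.57 and -0.60, and Cdk2, the partner of E-type cyclins, by 0.06. The probes of Cdk6 and of Cdk2 disagreed in sign.

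**Figure D2:**
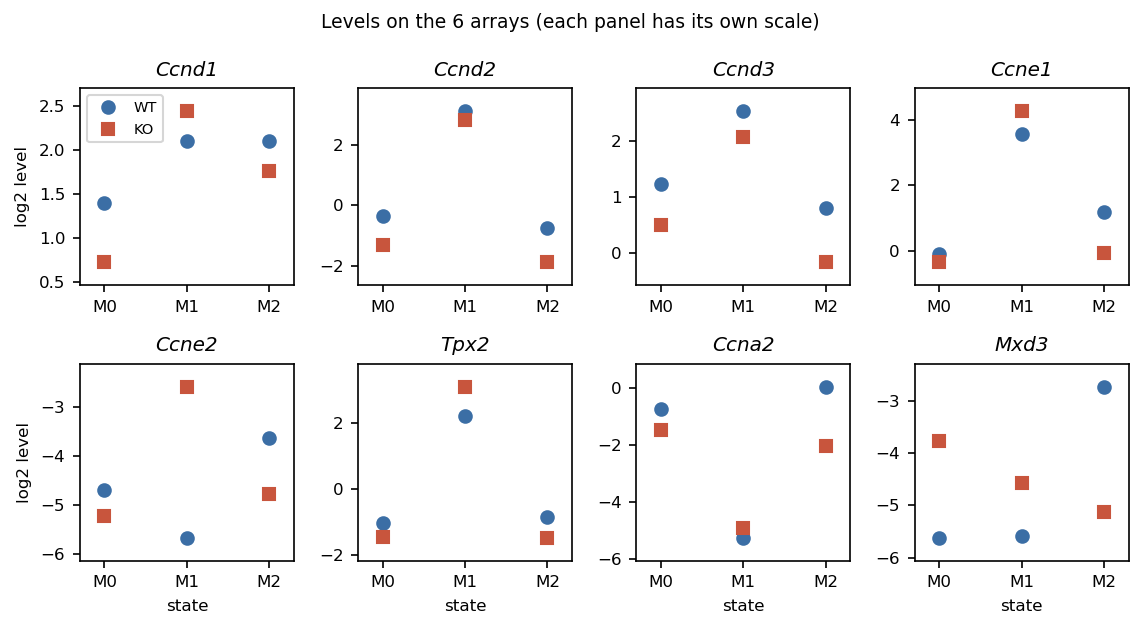
Log2 level (vertical axis, a scale for each gene) of the 5 G1 cyclins, Tpx2, Ccna2 and Mxd3 by state (horizontal axis); circles are WT and squares are KO, 1 array each. Ccnd2, Ccnd3, Ccne1 and Tpx2 are highest on both M1 arrays, Ccna2 is lowest there, and Ccne2 is high on the KO M1 array alone, at -2.58.

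Of the 10 licensing and fork genes, 2 fell in M1, none rose and 8 did not pass, with a median difference of -0.62. The count that fell is near the share of all tested genes that fell, 14.0%. The 6 Mcm genes encode the ring of the replicative helicase, and all 6 fitted differences were below 0, from -1.43 to -0.06. Mcm2 read -0.23, -1.70 and 0.28 in WT and -0.75, -2.14 and -0.46 in KO. Both M1 arrays were the lowest, and the difference was -1.43 (SE 0.17, adjusted p of 0.0143 in limma). Mcm3 read 1.99, 1.09 and 2.40 in WT and 1.76, 0.70 and 1.82 in KO and had a difference of -0.98 (SE 0.17, adjusted p of 0.0296 in limma), again with the M1 arrays lowest. Mcm7 read 1.66, 0.06 and 2.36 in WT and 1.26, 0.13 and 1.15 in KO. It was also lowest in M1 but did not pass, at -1.36 (SE 0.36, adjusted p of 0.0672 in limma).

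Mcm6 read 4.18, 3.17 and 4.58 in WT and 3.97, 3.21 and 3.51 in KO, lower on both M1 arrays than on both M0 arrays, with a difference of -0.88 that did not pass. Mcm5 read 0.59, 0.17 and 1.41 in WT and -0.48, -0.18 and -0.20 in KO. Its 3 WT arrays lay above its 3 KO arrays, and M1 and M0 overlapped. Cdc6, which loads the helicase onto origins, read -2.33, -3.88 and -2.88 in WT and -2.79, -3.65 and -4.28 in KO. KO M2 was its lowest array, and the M1 difference of -1.20 did not pass. Pcna, the sliding clamp of the polymerases, was the licensing or fork gene with M1 above M0 on both slides (0.63 in WT and 0.62 in KO, adjusted p of 0.122 in limma). Cdt1, the partner of CDC6 in licensing, differed by 0.15, Cdc45, a helicase cofactor, by -0.18 and Mcm4 by -0.37.

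Of the 4 genes of nucleotide synthesis, 2 fell, beside 14.0% of all tested genes. Rrm2, the regulated subunit of ribonucleotide reductase, read -1.71, -5.30 and -1.46 in WT and -3.22, -5.50 and -3.33 in KO. The M1 arrays were the lowest, the 2 brightest arrays were WT M0 and WT M2, and the M1 difference was -2.93 (SE 0.47, adjusted p of 0.0249 in limma). Tk1, thymidine kinase of the salvage pathway, read 0.28, -2.45 and 0.96 in WT and -0.85, -3.25 and -1.08 in KO. It had the same order of states, with a difference of -2.56 (SE 0.36, adjusted p of 0.0196 in limma). Rrm1, the large subunit of the same reductase, read 1.04, 0.33 and 1.40 in WT and 0.66, 0.24 and 0.85 in KO and differed by only -0.57 (SE 0.19, adjusted p of 0.110 in limma). Tyms, thymidylate synthase, read 0.61, -0.39 and 1.15 in WT and 0.07, 0.28 and 0.46 in KO. It was lowest on WT M1 alone, and M1 overlapped M0.

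Of the 16 mitotic genes, 6 fell (14.0% of all tested genes), 1 rose (11.6%) and 9 did not pass. The median was -1.72, and both M1 arrays lay below both M0 arrays for 13 of the 16. Ccna2 read -0.73, -5.26 and 0.05 in WT and -1.48, -4.91 and -2.02 in KO. The M1 arrays lay far below every other array, and the difference was -3.98 (SE 0.63, adjusted p of 0.0244 in limma). Cdc20 read 0.33, -2.49 and 0.40 in WT and -0.04, -2.34 and -0.39 in KO, with a difference of -2.56 (SE 0.28, adjusted p of 0.0130 in limma). Top2a read -2.20, -4.57 and -1.68 in WT and -3.19, -4.78 and -3.26 in KO, with a difference of -1.98 (SE 0.38, adjusted p of 0.0343 in limma). In both the M1 arrays were the lowest. Kif11 read -3.80, -6.79 and -3.26 in WT and -4.11, -6.48 and -4.25 in KO and was not well above background on either M1 array. With this scaling it was thus at least 4.61-fold lower in M1, with an adjusted p of 0.0185 in limma. The fold sets the mean of its M0 levels against the dimmest signal well above background. Normexp gave a smaller M1 difference for Ccna2 (-2.28), Rrm2 (-1.65), Top2a (-1.35) and Kif11 (-1.12), with adjusted p of 0.0674, 0.0898, 0.127 and 0.231 in limma. The mean of all probes gave -1.27 for Top2a and -1.13 for Kif11, and neither passed.

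Cenpa, the histone of the centromere, and Bub1b, the checkpoint kinase BUBR1, also fell, by differences of -1.84 (SE 0.19, adjusted p of 0.0123 in limma) and -0.87 (SE 0.15, adjusted p of 0.0284 in limma). Kif20a, a kinesin of cytokinesis, read -0.06, -2.90 and 0.29 in WT and -0.41, -1.91 and -0.54 in KO. Its M1 arrays were the lowest, but it just missed the threshold at -2.17 (SE 0.50, adjusted p of 0.0506 in limma). The cyclin B1 gene Ccnb1 (-1.93), the polo kinase gene Plk1 (-1.64), the survivin gene Birc5 (-1.79), the aurora B gene Aurkb (-1.25), the cyclin B2 gene Ccnb2 (-1.36) and the proliferation antigen Mki67 (-0.91) had M1 arrays below M0 arrays and did not pass.

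Tpx2, which encodes an activator of aurora A on the spindle, went the opposite way. It read -1.04, 2.22 and -0.86 in WT and -1.46, 3.12 and -1.49 in KO. The M1 arrays were the highest and the other 4 lay between -1.49 and -0.86. The difference was 3.92 (SE 0.45, adjusted p of 0.0138 in limma). Tpx2 rests on 1 probe, at chr2:152719476-152719535 on the plus strand of mm9. Aurka, its partner kinase, differed by -0.01. Bub1, a checkpoint kinase, differed by 0.90 (SE 0.37, adjusted p of 0.155 in limma). Its probes disagreed: the brighter, used here, had M1 above M0 in WT (0.76) and KO (1.04), while a dimmer probe had M1 below M0 in both (-1.75 and -0.41). Of 16 genes with several measured probes, 13 had probes of 1 sign, and Bub1, Cdk2 and Cdk6 did not.

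None of the 4 transcription factors passed. Foxm1, an activator of mitotic genes, read -2.54, -4.40 and -1.75 in WT and -2.79, -3.71 and -3.17 in KO. It was lowest in M1 in each genotype, with a difference of -1.39 (SE 0.56, adjusted p of 0.151 in limma). E2f1, an activator of S phase genes, read -0.83, -0.53 and -1.15 in WT and -0.97, -0.97 and -1.12 in KO and had the narrowest range of the 4, with a difference of 0.15. Under at least 1 other scaling or background correction, the fitted M1 difference changed sign for Ccne2, Cdk2, Cdt1, Cdc45, Mcm5, Aurka, E2f1 and Mybl2, none of which passed. Mybl2, which acts with MuvB, and Mxd3, a partner of MAX that is expressed in S phase, are described with the genotypes.

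**Figure D3:**
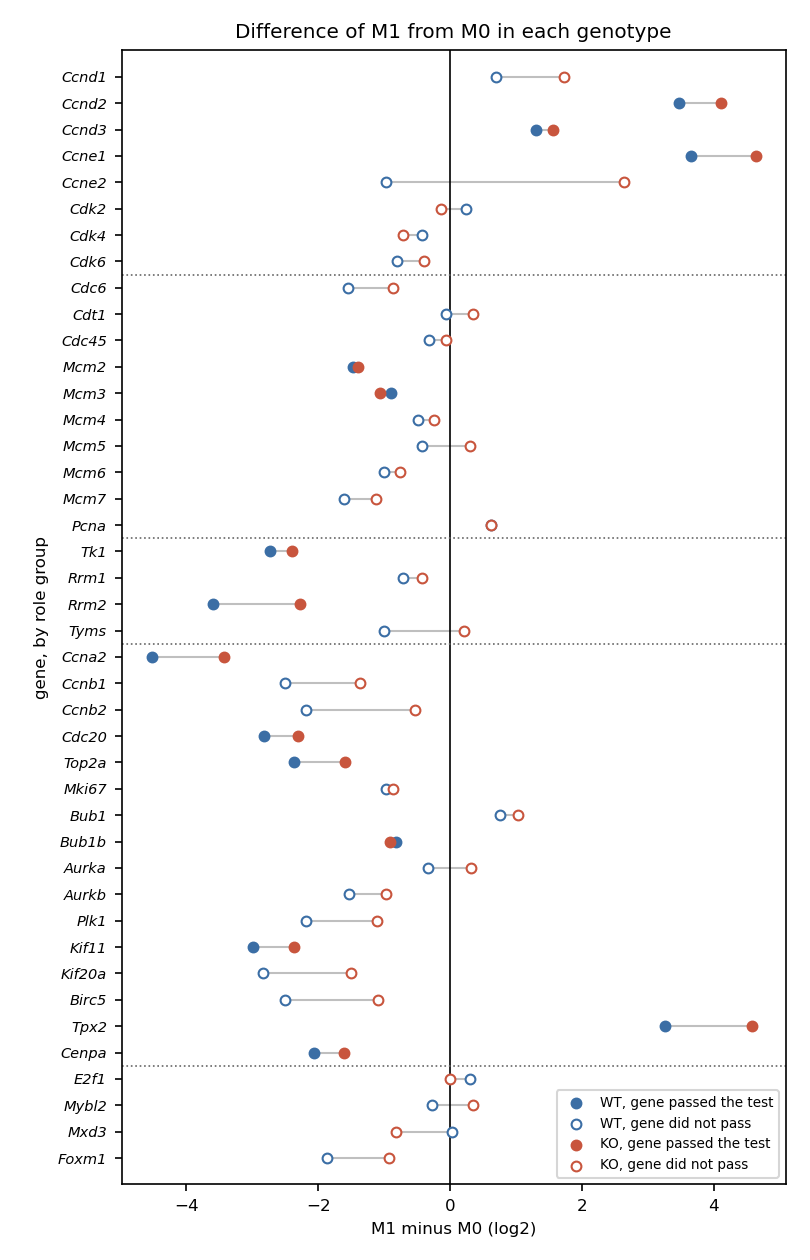
M1 minus M0 on the log2 scale (horizontal axis) for each of the 42 genes (vertical axis, by role group), 1 point from the WT arrays and 1 from the KO arrays. Filled points mark the 14 genes that passed the limma test over both genotypes; Ccna2 lies at -4.52 in WT and -3.43 in KO, and Tpx2 at 3.26 and 4.58.

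The calls depend on all 4 arrays of M0 and M1: without any 1 of them, 0 of the 42 genes passed, and 0 of all genes. With a slide block, 22 of the 42 genes and 28.4% of all genes passed (5 of the 42 rose and 17 fell), the added ones being Bub1, Aurkb, Ccnb1, Cdc6, Kif20a, Mcm6, Mcm7 and Mki67, and after normexp background correction 6 of the 42 and 6.74% of all genes passed. WT M2 is the only WT array on slide 2, so the slide block compares the states as if WT M2 were left out. Markers of other cells also differed between M1 and M0: 5 of 12 granulocyte markers fell and 1 rose in M1, 6 of 10 stromal markers fell, and the summed granulocyte level was 82.8 and 15.2 on the M0 arrays of WT and KO against 14.4 and 9.26 on the M1 arrays. Of 9 monocyte and progenitor markers 2 rose and 2 fell, and 6 had a difference below 0, with a median of -1.22. Their summed level was 8.66 and 1.43 in M0 and 184 and 71.9 in M1, the highest single difference being 7.28. Their median level went the other way, from -2.75 in M0 to -4.87 in M1 in WT and from -3.99 to -4.84 in KO. Over all tested genes, 11.6% rose and 14.0% fell. Of the tested markers, 1 of 6 B cell, 0 of 4 T and NK cell and 2 of 4 erythroid markers fell, 0 of 9 liver markers passed, and none of these rose. Their part in the result was not tested. In bulk RNA, fewer cycling cells and less RNA per cell cannot be told apart.

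The polarized states were also compared with each other. At an adjusted p under 0.05 in limma, 13 genes were higher and 4 lower in M2 than in M1, where 25.3% of all genes passed, 13.6% higher and 11.7% lower. Ccna2 (4.10), Rrm2 (3.00), Kif11, Tk1 (2.79), Cdc20 (2.42) and Kif20a (2.28) were among the higher, and Ccnd2 (-4.27), Tpx2 (-3.84), Ccne1 (-3.37) and Ccnd3 (-1.99) were the lower. Of the 13, 7 were mitotic genes and 6 were S phase genes. This comparison shares the M1 arrays with the one above and so is no separate support for it. In the counts that follow, the slide block and the fit without WT M2 are the same by construction. The count was 5 with normexp (7.07% of all genes) and 9 with a slide block (11.5%). Without 1 of the M0 arrays it was 1 (5.96%), without 1 of the M1 arrays 0 (0%), without WT M2 9 (11.5%) and without KO M2 21 (24.9%).

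For M2 against M0, 0 of 42 genes passed in limma, where 0.0998% of all genes did, and 4 genes (Ccnd1, Ccnd3, Cdk2 and Bub1) had an unadjusted p under 0.05, beside 19.1% of all genes. With a variance prior that follows intensity the count was also 0, with 5.64% of all genes called. The values within each genotype, each 1 array against 1 and so without a test, went in opposite directions for many genes. M2 was above M0 for 35 of the 42 genes in WT (57.6% of all tested genes) and for 16 in KO (51.2%). It was above M0 in WT and below M0 in KO for 19 of the 42 genes, beside 18.0% of all tested genes. These were 12 of the 16 mitotic genes, 4 of the 14 S phase genes (Mcm6, Mcm7, Tk1 and Rrm2) and the factor genes Mybl2, Mxd3 and Foxm1. WT M2 was the brightest array for 29 of 42 genes beside 23.5% of all, among them 14 of 16 mitotic genes and all 6 Mcm genes. This count and the M2 minus M0 counts in WT rest on the same WT M2 array.

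The median M2 minus M0 of the mitotic genes was 0.33 in WT and -0.21 in KO, and that of the S phase genes 0.41 and 0.07, beside 0.11 and 0.01 over all tested genes. Ccna2 differed by 0.78 in WT and -0.54 in KO, Mki67 by 0.41 and -0.43, and Birc5 by 0.32 and -0.38. Aurkb was higher in M2 by 1.13 in WT and level in KO (0.03). The centromere gene Cenpa went the other way, at -0.48 in WT and -0.08 in KO. The WT pair lies across the slides and the KO pair within slide 2, so this contrast and the slide cannot be told apart. The WT M0 array also has the highest level of liver transcripts. Under at least 1 other scaling or background correction, the fitted M2 minus M0 difference changed sign for 17 genes, among them Mcm6, Rrm2, Ccna2, Top2a and Foxm1.

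**Figure D4:**
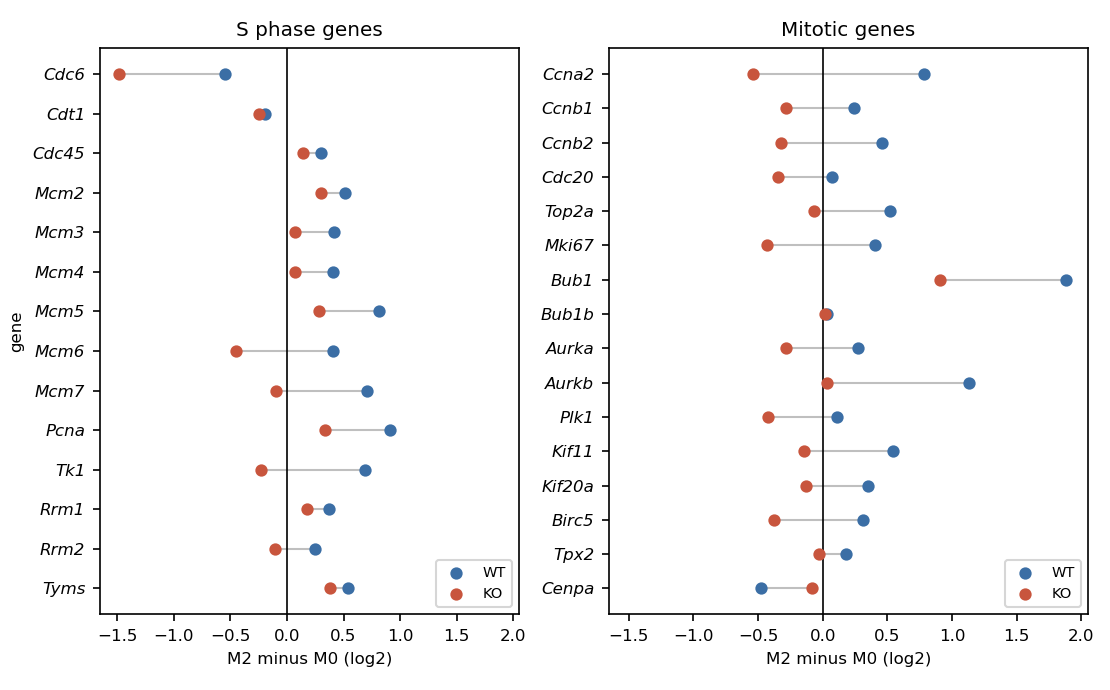
M2 minus M0 on the log2 scale (horizontal axis) for the 14 S phase genes and the 16 mitotic genes (vertical axes), with 1 point from the WT arrays and 1 from the KO arrays. Every S phase gene and 15 of 16 mitotic genes have the KO point left of the WT point, and 12 mitotic genes have the points on opposite sides of 0. The median of the KO value less the WT value is -0.35 for S phase and -0.57 for mitotic genes, beside -0.11 over all tested genes.

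In KO macrophages most of these genes read lower than in WT in M0 and in M2, and fewer did in M1, but no gene passed the test over the 3 states and each within-state value is 1 array against 1. In M2, KO was below WT for 38 of 42 genes (55.0% of all tested genes), and 19 were at least 2-fold lower (4.91%) with 0 at least 2-fold higher (3.33%). These M2 values share the WT M2 array with the M2 minus M0 values above and so are no separate support for them. In M0, KO was below WT for 36 (39.2%), and 3 were at least 2-fold lower (4.22%), namely Mcm5, Tk1 and Rrm2. Mxd3 alone was at least 2-fold higher in M0 (9.96%). In M1, KO was below WT for 16 (37.6%), 0 were at least 2-fold lower (1.69%) and 4 at least 2-fold higher (14.0%): Ccne2, Ccnb2, Mybl2 and Mxd3. Over the 42 genes the medians were -0.39 (M0), 0.19 (M1) and -0.94 (M2), beside 0.11, 0.13 and -0.05 over all tested genes.

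In the test of KO against WT over the 3 states, 0 of the 42 genes and 0% of all genes passed in limma. An unadjusted p under 0.05 was found for 11 of the 42, beside 11.3% of all genes: Ccnd2, Ccnd3, Cdc45, Mcm2, Mcm3, Mcm5, Tk1, Rrm2, Top2a, Mki67 and Bub1b, with fitted differences from -1.32 to -0.40. With a variance prior that follows intensity, 0.184% of all genes passed and 0 of the 42. These 11 genes, with Mcm4 and Rrm1, make up the 13 that were lower in KO in all 3 states (15.1% of all tested genes). Under at least 1 other scaling or background correction the fitted difference of Cdc45 and Bub1b changed sign, as did that of Cdk2, Cdk4, Cdk6, Ccnb1, Kif11, Tpx2 and Mxd3. Cdt1 was the 1 gene higher in all 3 (22.1%), by 0.29, 0.70 and 0.24 in M0, M1 and M2.

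Among the S phase genes, the nucleotide genes had the lowest median in M2 (-1.28) and the licensing and fork genes -0.73. Tk1 differed by -1.12, -0.80 and -2.04, with an adjusted p of 0.374 in limma over the 3 states. Mcm5 differed by -1.07, -0.35 and -1.61, its 3 KO arrays lying below its 3 WT arrays without overlap. All 6 Mcm genes were lower in KO in M0 and in M2, with medians of -0.40 and -0.90, and 4 of the 6 in M1, with a median of -0.25. Rrm2 differed by -1.52 and -1.87 in M0 and M2 and by -0.20 in M1, where it was dim in both genotypes. Pcna differed by 0.46, 0.45 and -0.12, above WT in M0 and M1.

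All 16 mitotic genes were lower in KO in M0, from -0.99 (Top2a) to -0.08 (Cenpa), and 15 of 16 in M2, down to -2.07 (Ccna2), Cenpa being the exception at 0.32. In M2, 8 of them were at least 2-fold lower: Ccna2, Birc5, Aurkb, Top2a, Mki67, Bub1, Ccnb1 and Ccnb2. In M1, 13 of 16 were higher in KO, with a median of 0.36. Ccnb2 read 0.28, -1.90 and 0.74 in WT and -0.03, -0.57 and -0.36 in KO; its KO M1 array was above its WT M1 array, while KO was lower in M0 and M2. Kif20a and Tpx2 were higher in KO by 0.99 and 0.89 in M1. As values, M1 minus M0 was higher in KO than in WT for 15 of the 16 and for 51.5% of all tested genes. That difference is 1 pair against 1 and was not tested, and KO M1 and WT M0 are the arrays with the highest levels of liver transcripts.

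The G1 cyclins were all lower in KO in M0 and in M2. Ccnd2 differed by -0.94 and -1.13, Ccnd3 by -0.73 and -0.96, and Ccne1 by -0.26 and -1.24. On the probes used, the kinases Cdk2, Cdk4 and Cdk6 differed from WT by between -0.42 (Cdk2 in M2) and 0.40 (Cdk6 in M1). A dimmer probe of Cdk2 gave 2.10, 3.17 and 0.48 in M0, M1 and M2. That probe was well above background on the 4 arrays other than WT M0 and WT M1, so 2.10 and 3.17 rest on background readings in WT. Among the transcription factors, Mybl2 read -2.42, -2.69 and -1.24 in WT and -2.01, -1.65 and -2.16 in KO. WT M2 was its brightest array, and KO was higher in M0 and M1 and lower in M2. Mxd3 read -5.62, -5.59 and -2.72 in WT and -3.76, -4.58 and -5.14 in KO. It was bright on WT M2 and next brightest on KO M0, and the KO difference was 1.87 in M0 and -2.41 in M2. A dimmer probe, well above background on the 4 arrays other than WT M1 and KO M0, gave -0.58 and -0.69. Foxm1 differed by -0.25, 0.69 and -1.42.

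**Figure D5:**
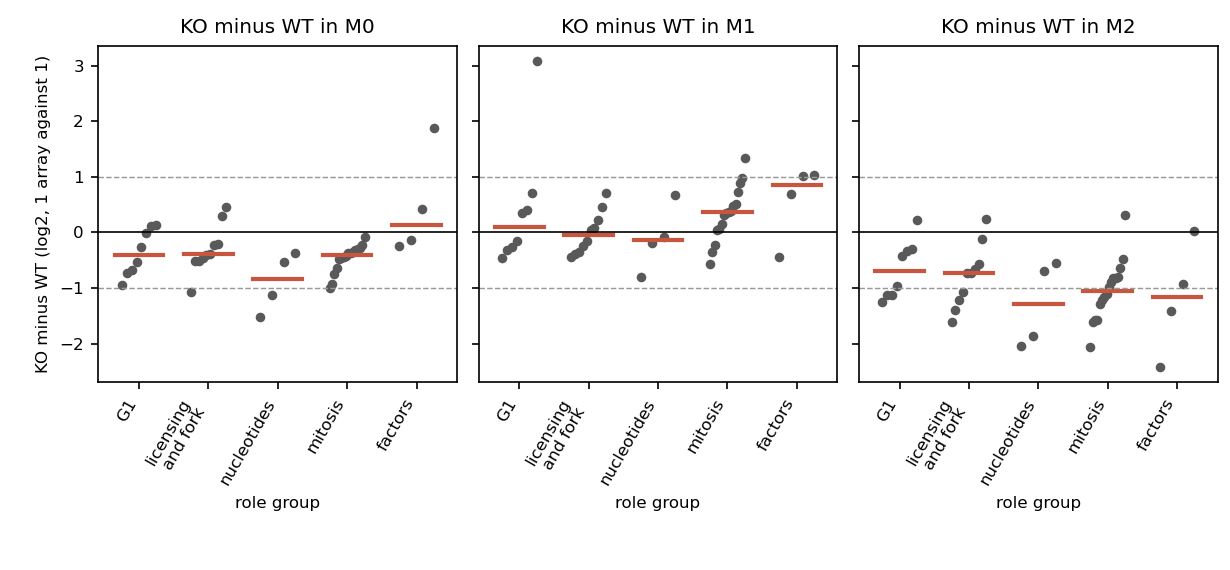
KO minus WT on the log2 scale (vertical axis) for each gene, by role group (horizontal axis) and by state (panels); bars are group medians, dashed lines mark 2-fold, and each point is 1 array against 1. The mitotic median is -0.40 in M0, 0.36 in M1 and -1.05 in M2, and the S phase groups are lowest in M2.

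Markers of other cells differed between the genotypes as well. Granulocyte markers were at least 2-fold lower in KO for 9 of 12 in M0 and 8 of 12 in M2 (summed level 82.8 in WT and 15.2 in KO in M0, and 26.8 and 6.77 in M2), and stromal markers for 9 of 10 and 6 of 10 (15.1 and 5.35, and 8.06 and 3.91). Monocyte and progenitor markers summed to 8.66 and 1.43 in M0 and 2.24 and 0.874 in M2. In M1, 4 of 12 granulocyte markers were at least 2-fold lower and 1 higher, beside 1.69% and 14.0% of all tested genes. The shares of all tested genes at least 2-fold lower in KO were 4.22% in M0 and 4.91% in M2. The part of these markers' cells in the lower levels of cell cycle genes was not tested. The M2 pair, where the difference was largest, lies within slide 2. Its summed liver level was 0.267 in WT and 0.223 in KO, with 7 of 10 liver markers well above background on each array. The M0 and M1 pairs lie across the slides, so there genotype and slide cannot be told apart.

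Lists of regulators and of further cell cycle genes were read in the same way. In M1, 11.6% of all tested genes rose and 14.0% fell, the shares to set beside the counts below. Of 7 tested CDK inhibitor genes, 2 rose and 3 fell in M1: Cdkn1a, which encodes p21, differed by 1.50 (SE 0.27, adjusted p of 0.0311 in limma) and Cdkn2b, p15, by 1.10, while Cdkn1c, p57, Cdkn3 and Cdkn2c, p18, fell by 2.25, 1.52 and 1.19. Cdkn1a read 3.83, 5.72 and 4.37 in WT and 5.49, 6.60 and 6.03 in KO, higher in KO in each state, and did not pass for KO against WT (adjusted p of 0.360 in limma). Of 17 genes of the RB family, other E2F factors and DREAM, 3 rose (Rbl1, which encodes the repressor p107, by 2.84, and the DREAM subunit genes Lin54 by 1.19 and Lin37 by 0.73) and 4 fell (the repressor E2f7, at least 3.27-fold lower, the activator E2f2, by 2.00, and the E2F partners Tfdp2 (-2.46) and Tfdp1 (-0.88)). E2f7 was not well above background on either M1 array. As for Kif11, its fold and those given below as at least hold with this scaling only.

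Among 45 other replication genes, 4 rose and 6 fell in M1, beside 11.6% and 14.0% of all tested genes, with a median of -0.13. Neither count stood above the share of all tested genes. Dut, the dUTPase that keeps uracil out of DNA, Pole2, a polymerase epsilon subunit, and Pola1, the catalytic subunit of polymerase alpha, fell by 2.63, 1.89 and 1.60, and Clspn, a checkpoint adaptor, was at least 1.55-fold lower. Timeless, of the fork protection complex, rose by 2.37, the polymerase alpha subunit Pola2 by 1.05, the clamp loader subunit Rfc3 by 1.02 and Gins4, of the helicase, by 0.73. Among 55 other mitotic genes, 2 rose and 16 fell, with a median of -1.01. Cenpf, of the kinetochore, was at least 14.3-fold lower, the centrosome kinase gene Nek2 at least 3.50-fold, Anln, anillin of the cleavage furrow, at least 1.75-fold and the kinesin gene Kif14 at least 1.48-fold, none being well above background on the M1 arrays. The securin gene Pttg1 rose by 1.64 and the cyclin F gene Ccnf by 0.97. Cdk1, the mitotic kinase, differed by -0.44 and did not pass. In M2, KO was at least 2-fold lower for 29 of these 55 genes (4.91% of all tested genes), in M0 for 5 (4.22%) and in M1 for 1 (1.69%). It was at least 2-fold higher for 3 in M2 (3.33%), 1 in M0 (9.96%) and 5 in M1 (14.0%).

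Of 12 genes of the MYC and MXD network, which include Mxd3 of the 42, 4 rose and 3 fell in M1, beside 11.6% and 14.0% of all tested genes. Myc, a growth-promoting factor, read 0.30, -4.05 and 2.17 in WT and 0.07, -3.61 and 1.06 in KO. Its M1 arrays were far the lowest, and it fell by 4.01 (adjusted p of 0.0123 in limma). Mxd1, which encodes a repressor that competes with MYC for MAX, rose by 3.03, Mycl by 1.42, Mlx by 1.37 and Max by 1.02, while Mxd4 and Mxi1 fell by 3.49 and 1.33. Among genes of CSF1 signalling, Ets2 rose by 1.23, and Csf1r, the CSF1 receptor, fell by 1.30. For KO against WT, the lowest adjusted p over these 6 lists was 0.306 in limma, in the CDK inhibitor list.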

How the data were processed

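Per the file headers, the deposited scanner files were written by Agilent Feature Extraction 10.7.3.1, and their processed signal is an intensity that the software has already background-corrected. The authors also deposited a log2 value table of the same arrays, which was used here as an alternative. Each intensity was taken as log2 minus the array's 75th percentile, control and outlier spots were left out, repeated spots were averaged and the brightest probe stood for a gene. Genes well above background on at least 2 arrays were tested with limma 3.58.1 in R 4.3.3 (state plus genotype, eBayes, prior df 1.88, 2 residual df, Benjamini-Hochberg over 19044 genes), in code tested on simulated data. With 1 array per genotype and state, the residual holds both array noise and any genotype difference that is not the same in each state, and the number of arrays limits the precision. The 42 genes, the marker lists and the other gene lists were chosen with earlier results of these data known. Levels on all arrays are printed for the 4 genes of each role group with the widest range (6 in mitosis and in licensing and fork), plus Ccnd1, Tk1, Rrm2 and Mxd3. Genes of other lists are named where they passed, up to 4 per list and direction by size, plus Cdkn1a, Cdk1 and Myc. Alternatives were median and quantile scaling, normexp, the authors' table, the mean of probes, other filters, an intensity-dependent prior, the slide as a block and leaving out each array. Probe positions are on mm9 per the file headers, and exon or UTR status was not analysed here. One gene of the CSF1 signalling list is not reported here.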

Additional observations from a re-analysis of the deposited data

Results flagged for a closer look

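Of the 42 genes, 3 had KO minus WT values at least 2-fold apart from WT in opposite directions in different states, as did 2.80% of all tested genes. These are values of 1 array against 1, and the differences between states were not tested. Ccne2 was 3.08 higher in KO in M1 and differed by -1.13 in M2, and its dimmer probe gave 2.79 and -0.99. Ccnb2 differed by 1.33 in M1 and -1.10 in M2. Mxd3 was higher in KO by 1.87 (M0) and 1.01 (M1) and differed by -2.41 in M2. Its dimmer probe gave -0.58, 2.71 and -0.69, so that its probes disagree in sign in M0. That probe was not well above background on KO M0 and WT M1, so its M0 and M1 values rest in part on background readings. The M1 values rest on the KO M1 array and the M0 value on the WT M0 array, the arrays with the highest levels of liver transcripts. The part of those transcripts was not tested.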

How the results depend on the processing

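No called result changed direction under the alternatives run. M1 against M0 called 14 of the 42 genes, 6 with normexp, 24 with the intensity-dependent prior, 22 with the slide as a block and 0 to 22 when 1 array was left out (0 without WT M0, WT M1, KO M0 or KO M1, and 22 without WT M2 or KO M2). M2 against M1 called 17, 5 with normexp, 9 with the slide block and 0 to 21 without 1 array. M2 against M0 and KO against WT called 0 under every alternative. The mitotic median of M1 minus M0 was -1.16 with normexp and -2.35 to -0.94 without 1 array, and that of the S phase genes -1.02 to -0.46. In WT alone the mitotic median moved from -2.18 to -0.98 with normexp. For M2 minus M0 the mitotic median was -0.45 with the slide block and -0.45 to 0.60 without 1 array, and the S phase median 0.05 to 0.50. With the slide block, which leaves the M2 pair alone to compare genotypes, KO minus WT was -0.73 for S phase and -1.05 for mitotic genes, and without 1 array -0.62 to -0.25 and -0.68 to -0.08. Without WT M0 and KO M1 together, an alternative chosen after seeing the data, the M1 minus M0 medians were -1.20 and -2.84 and the KO minus WT medians -0.73 and -1.05. M0 then holds only KO and M1 only WT, so KO minus WT is the M2 pair alone, as with the slide block. The 2 alternatives therefore give the same genotype values by construction and are no separate support. Likewise, the slide block fits WT M2, the only WT array on slide 2, exactly. Its comparisons between states are therefore those without WT M2, and these too are no separate support. Median scaling moved the median of all genes for M1 minus M0 in WT from 0.02 to 0.40, and normexp that in KO from 0.06 to -0.56. The cause was not tested. No paired analysis was possible because each genotype and state has 1 array, so that no replicate numbers pair the samples. The model itself sets the states against each other with genotype as a term.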

Other observations

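Some genes outside the 42, named here after their values were seen, were higher in KO in all 3 states, as were 22.1% of all tested genes. Gtse1, which encodes a G2 and S phase protein that restrains p53, differed by 2.20, 1.64 and 2.59 in M0, M1 and M2. Mybl1, a relative of Mybl2, differed by 1.45, 1.83 and 2.35, and Cdkn1c by 1.32, 1.41 and 1.75. None passed for KO against WT in limma, and each value is 1 array against 1.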
